A study of Mus musculus with 24 samples.

Results

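The expression of 10 genes characteristic of the choroid plexus, the epithelium that secretes cerebrospinal fluid inside the brain ventricles, was followed in the hippocampus of single mice. The genes are Ttr, Kl, Folr1, Clic6, Kcnj13, Aqp1, Slc4a5, Otx2, F5 and Cldn2, and they are 10 of the 55471 genes in the count table. They were chosen by their shared high level in 1 library of these data, the first replicate of the Control EE group, so that level and every comparison that includes this library are given as a description, and nothing is read from tests of the members there. RNA-seq libraries came from 12 female C57BL/6 mice of 3 to 6 months, with 3 mice in each of 4 groups and 2 sequencing runs per mouse. CBP-ifKOs carry floxed Crebbp alleles, which encode the acetyltransferase CBP, together with the CaMKIIα-creERT2 transgene, and controls were littermates without the transgene. All mice, controls included, had received 5 administrations of tamoxifen, and each genotype was kept in standard cages (SC) or in an enriched environment (EE). The Cre driver acts in excitatory neurons of the forebrain, so other cells of a CBP-ifKO hippocampus keep intact Crebbp alleles.

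The choroid plexus lies in the ventricles, next to the hippocampus but outside it, and its epithelial cells pump ions and water from blood into the ventricle while closing the space between cells with tight junctions. They also load the fluid with carrier proteins. Ttr encodes transthyretin, a carrier of thyroid hormone and retinol-binding protein made in very large amounts by this epithelium, and Otx2 encodes the homeodomain transcription factor on which its development and maintenance depend. Most of the other members are transporters, channels or junction proteins of the same cells, whereas Kl, which encodes the membrane protein Klotho, is also made by neurons of the hippocampus.

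Promoter sequence was examined because the members moved together and 1 of them is itself a DNA-binding factor. RefSeq start sites of GRCm38.p6 were found for 7 of the 10 members, which gave 10 windows of the 250 bases before a start site. The set of promoters used here held no entry for Ttr, Folr1 and Clic6. The letters TAATCC, the core bound by homeodomains of the Otx type, were searched on both strands, where the other strand reads GGATTA. They were present in 1 of the 10 windows (10%), against 6.25% of all 32851 promoter windows of that length and 5 of 50 windows (10%) of a wider list of choroid plexus genes. The match lay in a window of Otx2 itself, 211 bases before the start site and inside annotated exons of 2 other Otx2 transcripts. Its surroundings are shown with the match in capitals, as an illustration of the only member window that held it.

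Otx2, chr14:48665303-48665332, minus strand: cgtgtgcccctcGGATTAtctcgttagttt

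The windows of Kcnj13 and Kl are shown whole because, among members whose windows overlapped no annotated exon, they belong to the gene with the highest and the gene with the lowest fold in the library that stood apart. Neither holds the searched letters, and no letters are therefore in capitals.

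Kcnj13, chr1:87394730-87394979, minus strand: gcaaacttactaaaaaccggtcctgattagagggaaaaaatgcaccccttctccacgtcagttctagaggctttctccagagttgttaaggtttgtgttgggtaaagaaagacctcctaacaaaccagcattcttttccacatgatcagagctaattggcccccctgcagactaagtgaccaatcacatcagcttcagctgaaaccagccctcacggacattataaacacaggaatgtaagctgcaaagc

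Kl, chr5:150952357-150952606, plus strand: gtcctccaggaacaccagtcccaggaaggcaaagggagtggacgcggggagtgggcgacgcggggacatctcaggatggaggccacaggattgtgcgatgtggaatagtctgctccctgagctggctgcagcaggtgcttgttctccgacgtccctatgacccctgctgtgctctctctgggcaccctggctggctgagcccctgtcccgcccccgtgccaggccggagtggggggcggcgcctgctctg

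The Kcnj13 window was 45.2% G and C with 3 CpG dinucleotides and the Kl window 66.8% with 13, around medians of 52.4% and 6 over all promoter windows. A match is a description of letters, and a window without one says nothing about binding.

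Library totals ranged from 26874015 to 27971488 counts in controls and from 28582210 to 37448388 in CBP-ifKOs, so that 3 counts were worth 0.0801 to 0.112 CPM, the unit used throughout, in which each library is scaled to 1000000 counts after normalization. CBP-ifKO libraries held even counts only, while odd counts made up 54% to 55.1% of those above 0 in each control library. Values near the level of 3 counts rest on very few reads, fewer still in CBP-ifKOs if each read was counted more than once. Crebbp was measured at 69.6 to 81.9 CPM in the 6 controls and 44.5 to 51.5 CPM in the 6 CBP-ifKOs, with no overlap between genotypes. The library of Control EE replicate 1 stood apart from the other 11 in the members described next, and the comparisons between groups that include it are given with and without it.

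In Control EE replicate 1, Ttr was measured at 1128 CPM from 30730 counts (95% Poisson interval 1116 to 1141 CPM, which covers counting error only). The other control values were 26, 21.4 and 20.7 CPM in SC and 19.6 and 8.81 CPM in EE. CBP-ifKOs had 7.17, 6.02 and 7.73 CPM in SC and 32.3, 4.05 and 22.8 CPM in EE. The single high library was 57.6-fold above the median of the other 11 mice and 35-fold above the highest of them. Ttr ranked 58th by counts among all genes in that library and between 6433 and 12177 in the others, and it took 0.111% of the library. The gene lies at chr18:20665280-20674321 of GRCm38 on the plus strand, and its exons overlap those of no other gene.

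Otx2, the only transcription factor among the members, was at 7.6 CPM in Control EE replicate 1. Its other control values were 0.297, 0.717 and 0.653 CPM in SC and 0.617 and 0.0365 CPM in EE. In CBP-ifKOs it was at 0.239, 0.277 and 0.318 CPM in SC and 0.878, 0.0533 and 1.12 CPM in EE. The high library was 23.9-fold above the median of the others and did not overlap them. Exons of Otx2 overlap those of Otx2os1 on the opposite strand and Gm49154 on the same strand. Both were listed at no more than 0.184 CPM in any library. Whether the counting used strand is not stated in the sources used here.

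Among the ion and water transporters, Slc4a5, a sodium bicarbonate cotransporter, was at 9.62 CPM in Control EE replicate 1. It was at 0.297, 0.377 and 0.254 CPM in Control SC, at 0.386 and 0.0731 CPM in the other Control EE mice, at 0.0597, 0 and 0.0529 CPM in CBP-ifKO SC, and at 0.258, 0.0533 and 0.411 CPM in CBP-ifKO EE. All 3 values in SC-housed CBP-ifKOs were below the level that 3 counts give, and 1 was at 0. Aqp1, the water channel of the apical membrane, was at 9.47 CPM in that library and between 0.208 and 1.11 CPM in the others. Clic6, a chloride channel-like protein, was at 29.7 CPM against 0.623 to 3.17 CPM. The folds over the median of the other 11 mice were 37.9 for Slc4a5, 12.4 for Aqp1 and 24.9 for Clic6.

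Kcnj13, the inwardly rectifying potassium channel Kir7.1, was at 4.3 CPM against 0.0597 to 0.878 CPM, a fold of 29, and was the only member that did not pass the filter on low counts over the 12 mice. Its exons overlap those of Gigyf2 on the opposite strand, which was at 86.2 CPM in Control EE replicate 1 and between 88.7 and 109 CPM in the others. The neighbor was therefore lowest in the library where Kcnj13 was highest. In the other libraries, where Kcnj13 had 2 to 34 counts, reads of the neighbor and of Kcnj13 cannot be told apart without strand.

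Folr1, the folate receptor that carries folate into the cerebrospinal fluid, was at 11.2 CPM against 0.424 to 1.24 CPM, a fold of 15.7. Cldn2, a claudin that forms cation and water pores in the tight junction, was at 13.1 CPM against 0.32 to 1.04 CPM, a fold of 24.7. F5, which encodes coagulation factor V, was at 16.5 CPM against 0.418 to 1.86 CPM, a fold of 19.3. Its exons overlap those of Gm16548 on the opposite strand, which was at no more than 0.116 CPM. In these genes, too, the high library did not overlap the other 11.

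Kl departed from the other members. It was at 68.9 CPM in Control EE replicate 1 and between 21.7 and 29.8 CPM in the other mice, so its fold of 2.69 was the lowest of the 10. In the other 11 mice it was also by far the steadiest, with a mean of 23.9 CPM ± 1.84 (SD, n = 3) in Control SC, 27.8 ± 1.63 (SD, n = 3) in CBP-ifKO SC and 27.2 ± 2.26 (SD, n = 3) in CBP-ifKO EE, and with 24.5 and 24.3 CPM in the remaining Control EE mice.

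**Figure D1:**
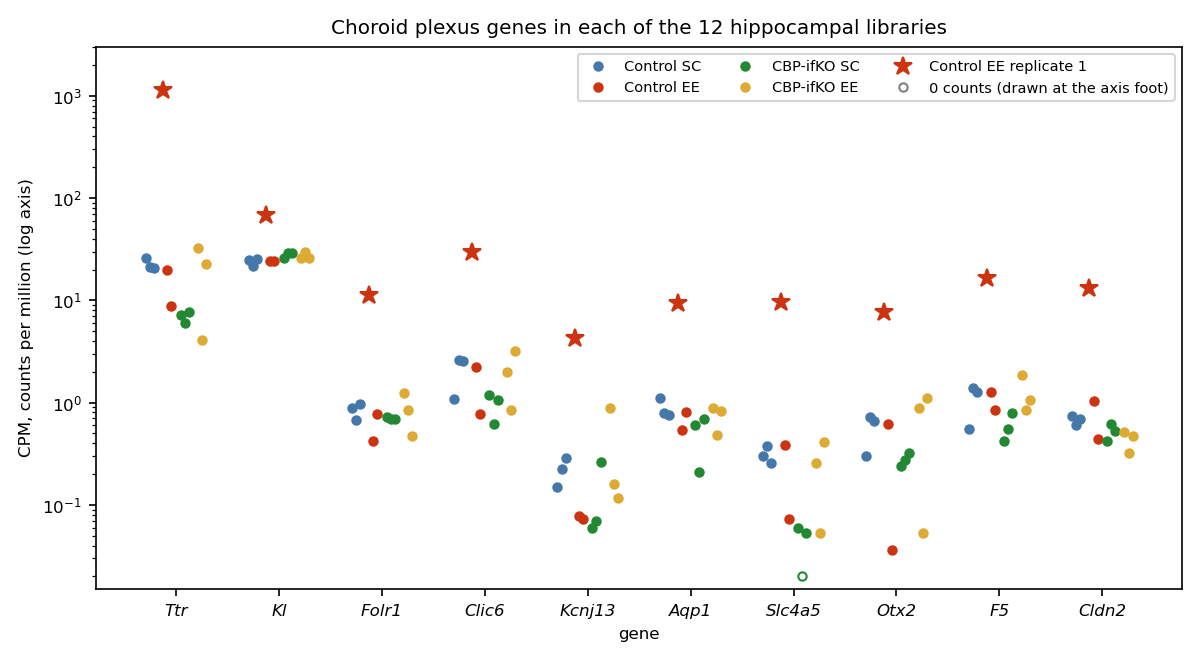
Level of each member in each mouse, in CPM on a log axis, with 1 point per mouse colored by group and Control EE replicate 1 as a star; an open point at the foot marks a library with no counts. The star lies above every other point in all 10 genes, from 68.9 against at most 29.8 CPM for Kl to 1128 against at most 32.3 CPM for Ttr.

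Summed over the members, Control EE replicate 1 held 1299 CPM and the other mice between 36.8 and 66.4 CPM, a fold of 25.7. Ttr made up 88.8% of the excess over the median of the other mice, Kl 3.46% and Clic6 2.29%. Without Ttr the fold was 5.37, since Kl dominates that sum, and without Ttr and Kl it was 19.8, from 102 CPM against 3.04 to 8.52 CPM. Divided by gene length, Ttr stood at 951 CPM per kilobase in the high library, followed by Clic6 at 7.6, Kl at 7.39, Folr1 at 4.89, Cldn2 at 3.93, Aqp1 at 3.61, Kcnj13 at 3.38, F5 at 2.22, Otx2 at 1.8 and Slc4a5 at 1.66 CPM per kilobase. There is 1 library behind this order and hence no spread between mice for it. In bulk tissue a lower or higher number of choroid plexus cells cannot be told apart from less or more RNA per cell.

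A further 46 genes known from choroid plexus epithelium were compiled as a second list, with earlier results of these data known. In Control EE replicate 1, 187 of the 18251 genes that passed the filter (1.02%) were more than 2-fold above the median of the other 11 mice. These included all 9 members that passed, a count fixed by the way they were chosen, and 25 of the 40 genes of the second list that passed. Against the highest other mouse instead of the median, 17 of the 40 were more than 2-fold above, as were 0.219% of all genes that passed. The 25 include Car12, at 1.04-fold of the highest other mouse, and Slc13a4, which was higher in other mice and is named after its values were seen. Of the 40 genes, 33 had their highest level of all 12 mice in this library, as had 6.57% of all genes that passed. The list reached from 1-fold for Igf2 to 75-fold for Tmem72, with Cldn1 (2.04-fold) just above and Igfbp2 (1.89-fold) just below the 2-fold line. Igf2, Tmem72 and Cldn1 are likewise named for these values. The filter was set over all 12 mice, this library included, so a high level in it could help a gene such as Tmem72 to pass. Of the 20 genes with the highest folds, 8 were members, 7 came from the second list and 5 from neither.

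Also named after their values were seen, the highest of the second list were Tmem72, at 13.4 CPM against 0.0692 to 0.47 CPM, Mfrp at 8.96 against 0.138 to 0.568 CPM, and Kcne2, a potassium channel subunit, at 6.72 against 0.106 to 0.587 CPM. Among the genes with the highest level per kilobase, Enpp2, which encodes autotaxin and is also a gene of oligodendrocytes, was at 830 CPM against 161 to 217 CPM, a fold of 4.57. The other 4 of that group were less raised, with folds of 1.31 for Ezr, 1.17 for Slc29a4, 1.89 for Igfbp2 and 1.4 for Slc31a1. Outside both lists and at a mean of at least 1 CPM, the highest folds were those of the pseudogene Atp6v0c-ps2 (63.5), Capn11 (6.99) and Rec8 (6.45). None of them set the library clearly apart, since Atp6v0c-ps2 was at 15.2 CPM in it and reached 16.4 CPM in another mouse, Capn11 was at 9.62 against up to 9.27 CPM, and Rec8 at 3.85 against up to 3.11 CPM.

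**Figure D2:**
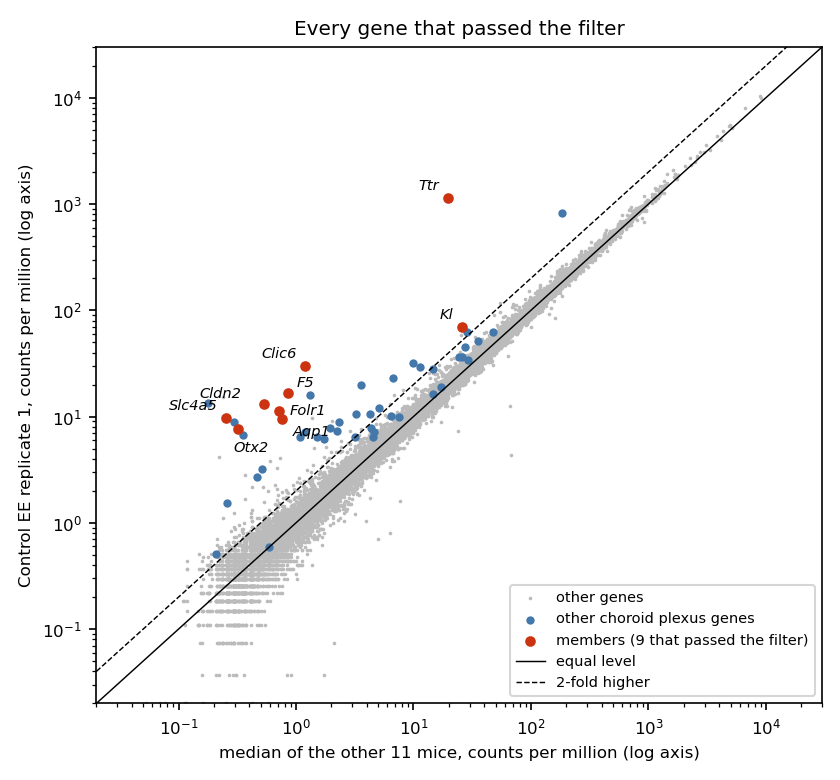
Level of every gene that passed the filter in Control EE replicate 1 (vertical, CPM, log axis) against its median in the other 11 mice (horizontal, CPM, log axis), with the members in red and the second choroid plexus list in blue. The 9 members that passed lie above the dashed 2-fold line, as do 25 of the 40 blue genes, while most other genes follow the line of equal level.

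Markers of neighboring cell types were not raised to the same extent in that library. Summed over each list, ependymal markers were at 1.32-fold of the median of the other mice (36.3 CPM against 21.5 to 32.7 CPM), with 1 of the 9 markers that passed the filter above 2-fold. Meningeal fibroblast markers were at 1.06-fold, endothelial markers at 1.04-fold, thalamic neuron markers at 1.13-fold, myelin markers at 1.23-fold and red blood cell markers at 0.784-fold, with none above 2-fold. The myelin sum of 4723 CPM lay above the 3317 to 4489 CPM of the other mice, and 3 of the 5 myelin markers were highest in this library. Markers of hippocampal excitatory neurons were at 1.04-fold, 2170 CPM against 1983 to 2349 CPM, inside the range of the other mice. No marker of these lists was at 0 in all libraries. The part of any of these cell types in the level of the members was not tested.

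The effect of EE in control mice takes the high library into 1 of its 2 groups. In a fit of all 12 mice, the log2 fold changes of the members ranged from 0.72 for Kl to 4.08 (SE 1.21) for Ttr, with a median of 2.40. Over all genes, edgeR's quasi-likelihood test called 0 of 18251 (0%) at an adjusted p of 0.05, with 768 at an unadjusted p below 0.05, and DESeq2 called 15. As the members were chosen by their level in 1 of these mice, nothing is read from their own p-values. Without Control EE replicate 1 the median was -0.44, and the individual values were -0.68 (SE 0.51) for Ttr, -0.78 for Otx2, -0.50 for Folr1, -0.47 for Clic6, -0.44 for Slc4a5, -0.40 for Aqp1, -0.03 for F5, 0.03 for Kl and 0.12 for Cldn2. None of the 9 passed, at an edgeR adjusted p of 1 each, where 5 of 18633 genes (0.0268%) did. Of the 9 members, 7 therefore had a value above 0 with that mouse and below 0 without it.

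Both remaining EE controls were below all 3 SC controls for Ttr and Kcnj13 among the members. This also held for 18 of the 46 genes of the second list (39.1%), and for 10.2% of the 18251 genes that passed the filter. Of the 46 genes, only 40 passed that filter. Kcnj13 did not pass it, and had 2 and 2 counts in these EE controls against 4, 6 and 8 in the SC controls. No gene of either list passed the test in this reduced comparison, in which 4 of the 41 genes tested of the second list had an unadjusted p below 0.05, as had 4.68% of all genes. In the same fit, meningeal fibroblast markers had a median log2 fold change of -0.57, with all 10 below 0, and ependymal markers -0.48, with all 9 tested below 0, and none passed. Endothelial, myelin and thalamic neuron markers had medians of -0.17, -0.12 and -0.07, and red blood cell and hippocampal excitatory neuron markers 0.24 and 0.07. Their part in the values of the members was not tested.

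The same library enters the comparison of genotypes under EE. With it, the members' log2 fold changes in CBP-ifKOs ranged from -4.28 (SE 1.43) for Ttr to -0.52 for Kl, and edgeR called 805 of all 17625 genes (4.57%). Nothing is read from the members' p-values here either. Without it, they ranged from -0.74 (SE 0.47) for Cldn2 to 1.08 (SE 0.93) for Otx2, with Ttr at 0.49 (SE 0.55), and none of the 9 passed, where 701 of 18320 genes (3.83%) did. Of the 9 members, 8 had a value below 0 with the library and above 0 without it, and Cldn2 was below 0 in both. In the fit without it, meningeal fibroblast markers had a median of 0.63, with 2 of 10 called higher, and hippocampal excitatory neuron markers -0.31, with 4 of 8 called lower. Medians were 0.26 for ependymal, 0.19 for myelin, 0.10 for endothelial, -0.16 for thalamic neuron (1 of 6 called lower) and -0.28 for red blood cell markers. Their part in the members' values was not tested.

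**Figure D3:**
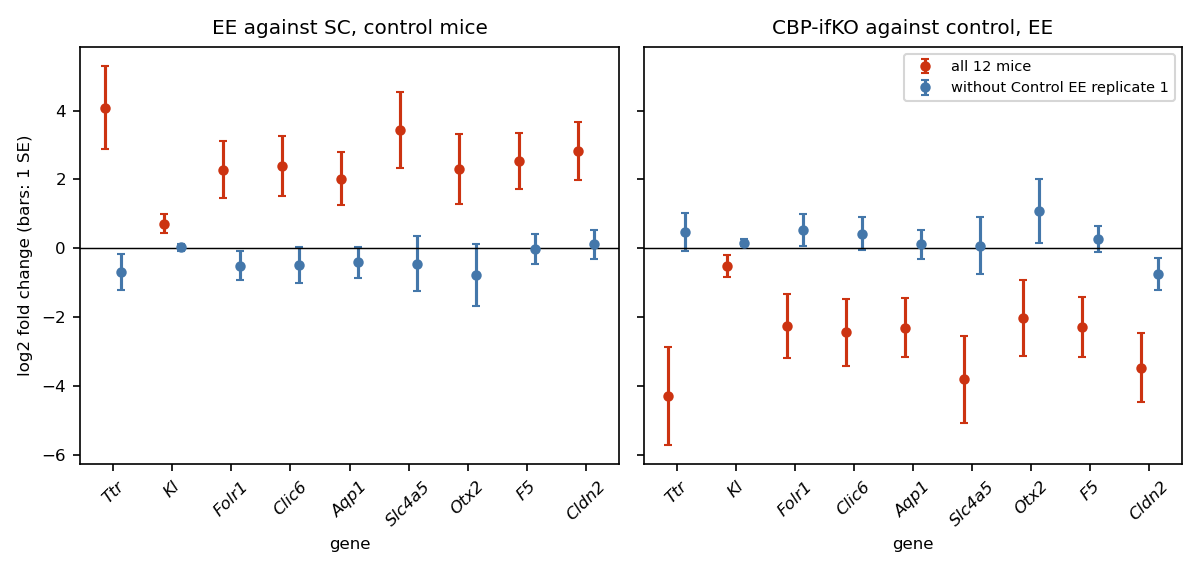
Log2 fold change of the 9 members that passed the filter, with bars of 1 SE, for EE against SC in control mice (left) and CBP-ifKO against control in EE (right), fitted with all mice (red) and without Control EE replicate 1 (blue). With all mice Ttr is at 4.08 on the left and -4.28 on the right, and without that mouse at -0.68 and 0.49.

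The genotypes were also compared in SC, where the high library plays no part. Since the levels of the members in all 12 mice were known when they were chosen, the test is not fully independent of that choice. Ttr was lower in CBP-ifKOs, with 6.97 CPM ± 0.871 (SD, n = 3) against 22.7 CPM ± 2.89 (SD, n = 3) in controls. The groups did not overlap, since the highest CBP-ifKO mouse had 7.73 CPM and the lowest control 20.7 CPM. The log2 fold change was -1.70 (SE 0.12) with an edgeR adjusted p of 2.2e-05. Leaving out each mouse in turn gave -1.78 to -1.59. Ttr was the only 1 of the 7 members tested that passed, in a comparison where 968 of 17532 genes (5.52%) did. Otx2, Slc4a5 and Kcnj13 did not pass the filter on low counts in these 6 libraries.

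Most of the remaining members had values below 0 in the SC-housed CBP-ifKOs that did not pass. Clic6 had a log2 fold change of -1.10 (SE 0.35) and an edgeR adjusted p of 0.0949. Leaving out each mouse in turn gave -1.40 to -0.88, with edgeR adjusted p from 0.0207, without Control SC replicate 1, to 0.287. Without the filter on low counts the edgeR adjusted p was 0.00709. F5 was at -0.85 (SE 0.39), Aqp1 at -0.80 (SE 0.41), Cldn2 at -0.38 (SE 0.33) and Folr1 at -0.28 (SE 0.30), with edgeR adjusted p between 0.248 and 0.651. Kl had the opposite sign, 0.22 (SE 0.08), at an edgeR adjusted p of 0.141. The median over the 7 members was -0.80, beside -0.0019 over all genes tested. Ttr, Aqp1 and Slc4a5 were lower in every CBP-ifKO than in every control, and Kl was higher. Those patterns were shown by 13.5% and 11.9% of the genes that passed the filter over the 12 mice.

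In the second list, 1 of 37 genes tested passed in SC, where 968 of all 17532 genes (5.52%) did. This was Car12, a membrane-bound carbonic anhydrase, at 57.4 CPM ± 2.31 (SD, n = 3) in controls and 26.2 CPM ± 2.22 (SD, n = 3) in CBP-ifKOs, with a log2 fold change of -1.13 (SE 0.07) and an edgeR adjusted p of 1.12e-05. It was the only gene of that list that also passed in EE. Its log2 fold change there was -1.09 (SE 0.10) at an edgeR adjusted p of 0.000326. Without Control EE replicate 1, Car12 was at -0.97 (SE 0.10) with an edgeR adjusted p of 0.000195. In Control EE replicate 1 it was at 61.9 CPM, 1.04-fold of the highest other mouse, so it was not set apart there as the members were. The median log2 fold change of the second list in SC was -0.16. All 7 lists of other cell types also had medians below 0 in SC, at -0.29 for meningeal fibroblast, -0.26 for thalamic neuron, -0.25 for red blood cell, -0.21 for ependymal, -0.16 for hippocampal excitatory neuron, -0.15 for endothelial and -0.05 for myelin markers. Of these, 1 of 6 thalamic and 3 of 8 hippocampal markers passed, beside 5.52% of all genes tested. A further 3 of 8 endothelial markers had an unadjusted p below 0.05, as had 20.5% of all genes, without passing edgeR's adjustment. The part of these cell types in the level of Ttr was not tested.

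Among CBP-ifKOs, EE-housed mice had Ttr levels of 32.3, 4.05 and 22.8 CPM, so that 2 of them lay above and 1 below all 3 SC-housed mice. The mean was 19.7 CPM ± 14.4 (SD, n = 3) in EE against 6.97 ± 0.871 (SD, n = 3) in SC. The log2 fold change of 1.49 (SE 1.30) did not pass at an edgeR adjusted p of 0.777, and none of the 9 members tested did, where 2 of 18251 genes (0.011%) passed. It was 0.92 without CBP-ifKO EE replicate 1 and 1.98 without CBP-ifKO EE replicate 2, and did not pass in either case. Control EE replicate 1 belongs to neither group but enters this fit through the filter, the normalization and the estimate of the spread. Without it the log2 fold change remained 1.49 while its SE fell to 0.47. The edgeR adjusted p was then 0.448, and 2 of 18633 genes (0.0107%) passed. The fit without a filter on low counts gave an SE of 0.08 and an edgeR adjusted p of 1.2e-68 for Ttr, although the mice of both groups overlapped.

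Over the 9 members the median log2 fold change for EE in CBP-ifKOs was 1.04, beside -0.0025 over all genes tested, with the highest value for Slc4a5 (2.46, SE 1.96) and values below 0 for Kl (-0.03) and Cldn2 (-0.26). Without Control EE replicate 1, 4 of the 9 members (Ttr, Slc4a5, F5 and Clic6) had an unadjusted p below 0.05, as had 8.41% of all genes, and none passed adjustment with edgeR. F5 was the only 1 of the 10 members with all 3 EE mice above all 3 SC mice. That pattern was shown by 7.69% of the genes that passed the filter over the 12 mice. In the fit of 12 mice, the medians of other cell types were 0.46 for meningeal fibroblast, 0.11 for red blood cell, 0.09 for myelin, 0.05 for endothelial, 0.05 for thalamic neuron, -0.07 for ependymal and -0.12 for hippocampal excitatory neuron markers. None of these markers passed, and 3 of 8 endothelial, 3 of 8 hippocampal, 1 of 9 ependymal, 1 of 10 meningeal and 1 of 6 thalamic markers had an unadjusted p below 0.05, as had 8.59% of all genes. Their part in the values of the members was not tested.

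Over the 11 mice without Control EE replicate 1, several members were high or low in the same mice, also within a group. CBP-ifKO EE replicate 1 had the highest level of Ttr, Folr1, Kcnj13 and F5, and CBP-ifKO EE replicate 3 the highest of Clic6, Slc4a5 and Otx2. CBP-ifKO EE replicate 2, of the same group, had the lowest level of Ttr and Cldn2. CBP-ifKO SC replicate 2 was lowest for Clic6, Aqp1 and Slc4a5, while Control EE replicate 3 was lowest for Otx2 at 0.0365 CPM. From the lowest to the highest of these 11 mice, Ttr varied 7.96-fold.

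**Figure D4:**
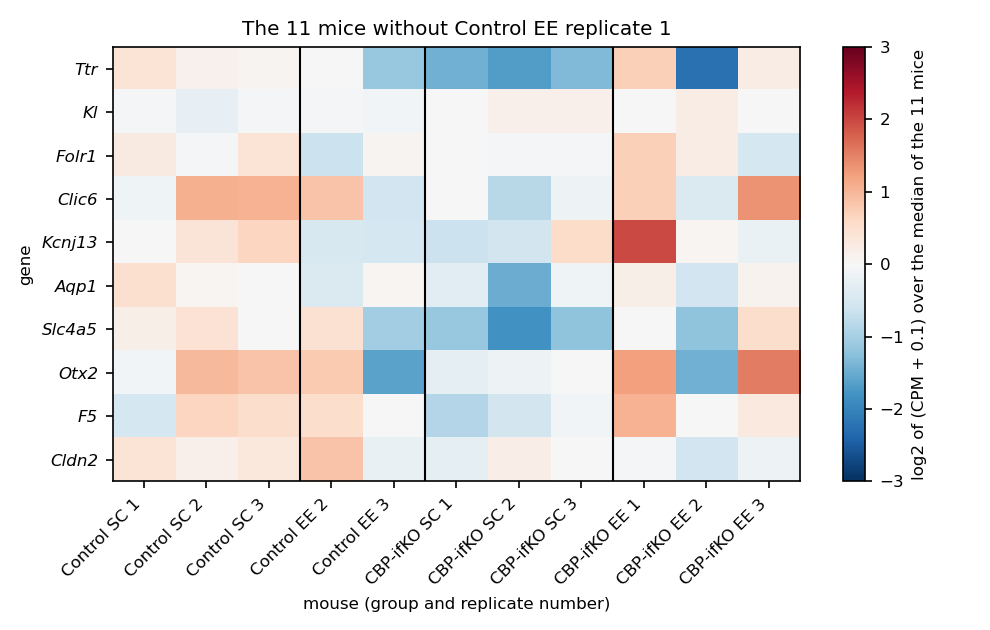
Level of each member in the 11 mice without Control EE replicate 1, as log2 of CPM plus 0.1 over the median of these mice, with black lines between the 4 groups and each column 1 mouse. Ttr, Slc4a5, Clic6 and Otx2 are all above the median in CBP-ifKO EE replicate 3 and all below it in Control EE replicate 3, and Kl varies little throughout.

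Correlations between members are given as a description, since the genes were chosen for moving together and all points of a pair share their library. Over 12 mice the median of Pearson's r over the 45 pairs, on log2 CPM, was 0.87 (0.63 to 0.97), while the median of Spearman's rho was 0.48. Over the 11 mice without Control EE replicate 1 the medians were 0.34 (-0.70 to 0.90) and 0.33, so the high correlations over 12 mice rested on that mouse. Leaving out the 2 mice farthest from the median, Control EE replicate 1 and CBP-ifKO SC replicate 2, gave a median r of 0.32. Within the 6 CBP-ifKOs, which do not include the high library, the median r was 0.39, and none is given for the 5 controls without that library, fewer than the 6 mice required here for a correlation.

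Of the 45 pairs over the 11 mice, those named next were picked for their high r. These mice come from 4 groups, so differences between groups enter r. The pairs with the highest r were Ttr and Slc4a5 (0.90), Clic6 and Slc4a5 (0.87), Clic6 and Otx2 (0.85), Ttr and Otx2 (0.78) and Ttr and Clic6 (0.77). Slc4a5 rested on 0 to 14 counts and Otx2 on 1 to 38 counts in these mice. The median r of a member with the other 9 was 0.63 for Slc4a5, 0.60 for Ttr, 0.55 for F5, 0.50 for Otx2, 0.48 for Clic6, 0.42 for Kcnj13, 0.34 for Aqp1, 0.22 for Cldn2 and 0.07 for Folr1. Kl had a median of -0.43, with values of -0.68 with Ttr and -0.70 with Slc4a5 but -0.05 with Kcnj13 and 0.09 with Folr1.

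**Figure D5:**
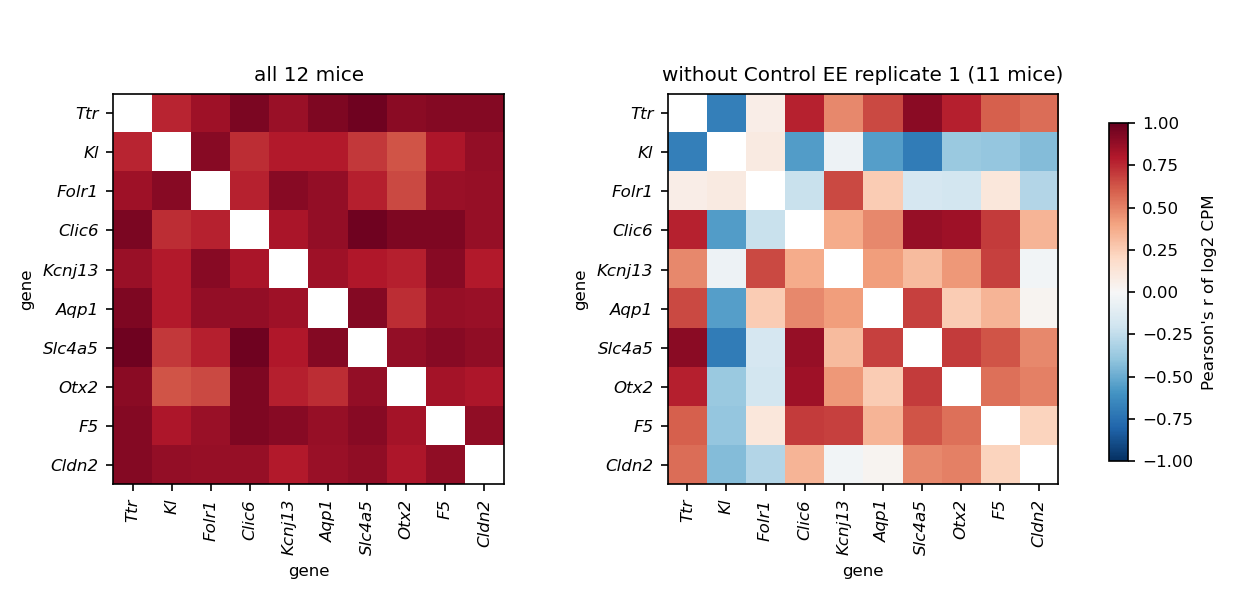
Pearson's r of log2 CPM between each pair of the 10 members, over all 12 mice (left) and over the 11 mice without Control EE replicate 1 (right), on a color scale from -1 to 1. All 45 pairs are positive on the left, against 32 of 45 on the right, where Kl is negative with most members.

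Genes outside both lists were ranked by their correlation with the mean standardized level of the members, among 15009 genes with a mean of at least 1 CPM. Over all 12 mice the 10 highest were Sowahc (r = 0.96), Drc7 (0.95), Epn3, Gm44250, Pcp4l1, Vamp8, Tcaf2, Prkcq, Mdfic and Stk39 (0.82). Drc7, a component of the dynein regulatory complex of motile cilia, was at 9.03 CPM in Control EE replicate 1 and between 1.43 and 3.41 CPM in the others. Over the 11 mice the 10 highest were Dock11 (0.96), Fam167a (0.92), Dab2 (0.91), Ranbp3l, Htr7, Mill2, Zic4, Oxr1, Pcdh7 and Drc7 (0.86). Only Drc7 stood in both lists of 10. Of these, Dab2, an endocytic adaptor, was at 14.8 CPM in Control EE replicate 1, inside the 7.26 to 16.8 CPM of the other mice.

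The second choroid plexus list was also compared with the members' mean level. Over 12 mice, 16 of the 20 genes closest to the members came from it, and the median r of its 34 ranked genes was 0.85, beside 0.01 over all ranked genes. Over the 11 mice, 2 of the closest 20 came from it and its median r was 0.50, beside -0.02 over all ranked genes. The minimum mean of 1 CPM was taken over all 12 mice in both rankings. Control EE replicate 1 therefore also helped decide which genes were ranked. Tmem72 and Mfrp, with means of 1.32 and 1.05 CPM, had medians of 0.179 and 0.299 CPM in the other 11 mice. The counts and r values are a description of shared libraries and carry no test.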

How the data were processed

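Hippocampal RNA was sequenced by the authors as single-end reads of 50 bp. Reads were trimmed with Trim Galore 0.6.4, aligned with STAR 2.6.1 to mm10 (GRCm38), kept at a mapping quality above the authors' limit and assigned to Ensembl exons with Rsubread. Whether counting used strand is not given in the sources used here. The authors deposited these raw counts without normalization, summed over both runs of a mouse, together with a gene length in bases. All counts of the CBP-ifKO libraries are even, and they were also analyzed halved.

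Groups came from the sample titles. Of 55471 gene identifiers, 55144 matched a symbol. Each replicate is 1 mouse. edgeR 4.0.16 in R 4.3.3 (filter on low counts by group, TMM normalization, quasi-likelihood F test, Benjamini-Hochberg adjustment over all genes tested, threshold 0.05) was fitted to 6 mice for genotype in SC or in EE, and to 12 mice for housing. CPM use TMM library sizes, and correlations use log2 CPM with a prior count of 2. The procedure was tested on simulated data. Positions came from GENCODE (GRCm38) and promoters from RefSeq. Named genes were, by rule, the members, genes of the second list past the threshold in SC or in CBP-ifKOs or among the 5 highest per kilobase, the 10 most like genes over 11 and over 12 mice, Crebbp, and the 3 highest folds outside both lists at a mean of at least 1 CPM. Other genes are marked in the text as named after their values were seen. Members and gene lists were chosen with earlier results of these data known. Alternatives were DESeq2 1.42.0, other normalizations, no filter, halved counts, a replicate block, fewer mice in the fit and leaving out each mouse.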

Additional observations from a re-analysis of the deposited data

How the results depend on the processing

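The decrease of Ttr in SC-housed CBP-ifKOs kept its direction and passed under every alternative run, with log2 fold changes of -1.78 to -1.59 and adjusted p of 2.11e-05 to 0.000528 when each mouse was left out. The count of all genes called moved more. In SC, 968 genes became 1512 without the filter and 399 to 1908 with a mouse left out, and the 2 choroid plexus genes called (members and second list together) became 6 without the filter and 2 to 3 with a mouse left out. For EE in CBP-ifKOs, 2 genes became 50 with DESeq2, 247 without the filter, 0 with halved counts, 21 with only the 6 mice of that genotype, 17 with the replicate number as a block (replicate block), and 0 to 10 with a mouse left out. For EE in controls, 0 genes became 15 with DESeq2, 145 without the filter, 1 with only 6 mice and 0 to 5 with a mouse left out. Choroid plexus genes called rose from 0 to 8 and 23 in these housing comparisons without the filter. For genotype in EE, 805 genes became 1270 with DESeq2, 1677 without the filter and 285 to 1016 with a mouse left out, and 1 choroid plexus gene became 3 with DESeq2, 32 without the filter, 2 with halved counts, 4 with the replicate block and 1 to 5 with a mouse left out. That comparison and EE in controls include the library that chose the members, and nothing is read from the members' calls there. The cause of these changes was not tested.

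Without CBP-ifKO EE replicate 1, the change with EE in CBP-ifKOs turned to 0.0068 for Kl and to -0.0678 for Folr1, neither called (ranges with a mouse left out, -0.1039 to 0.0068 and -0.0678 to 0.5817). The replicate numbers were not taken to pair mice, since correlations of the deviations of same-numbered mice were -0.047 to 0.305 and in no comparison were all 3 above 0.1. Each of the 6 mice was closest to its own number for genotype in EE, and 2 to 4 of 6 in the other comparisons, a hint from the data only. With the replicate block, Ttr was at 2.53 for EE in controls and at -2.31 for genotype in EE, not called. The summed members' fold was 25.7 with and 5.37 without Ttr. The median correlation fell from 0.87 to 0.48 by rank and to 0.34 without Control EE replicate 1. Halving the CBP-ifKO counts and leaving out that mouse together was chosen after seeing the data. It gave 0 genes called for EE in CBP-ifKOs, 9 for EE in controls, and -0.68 and 0.49 for Ttr in the comparisons that hold that mouse. Depth limits the 8 members other than Ttr and Kl, with medians of 4 (Kcnj13) to 40 (Clic6) counts in the other 11 libraries, and most of all Kcnj13, Slc4a5 and Otx2, with medians of 4, 7 and 12.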

Other observations

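In Control EE replicate 1, 245 of the 18251 genes that passed the filter were below 0.5 times the median of the other 11, beside the 187 above 2-fold. Of those 187, 153 belonged to neither choroid plexus list. Chosen after their values were seen, Prr32 had a fold of 19.1 and Rbm47 a fold of 7.53, both at a mean below 1 CPM. No gene of the second list that passed the filter was below the median of the other mice. Its lowest, Igf2, named for this value and also a gene of meningeal cells, was at 0.587 CPM in that library and ranked 6th of the 12 mice.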
